A study of Mus musculus with 8 samples.

Results

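The genes described here are 10 enzymes that use arginine or make and break down polyamines: Arg1, Arg2, Ass1, Asl, Nos2, Odc1, Srm, Sms, Sat1 and Oat. They were taken by symbol from the deposited transcript tables, and all 10 were found among 24346 symbols. The set was proposed with the difference between the groups already known, so the differences of the 10 genes between the groups are given as a description. Where the fit across all genes called any of them, that is given as a count from which nothing is read. The data are RNA sequencing of uterine epithelium in 8 libraries, 3 from control mice and 5 from Smad2/3 cKO mice. In the cKO mice (Smad2flox/flox;Smad3flox/flox;Pgr-cre), loxP-flanked parts of Smad2 and Smad3, which carry TGF-beta and activin signals into the nucleus, are removed by a Cre recombinase knocked into the progesterone receptor gene. All mice had a mixed C57BL/6/129S6/SvEv background. The labels call the other group control without giving its alleles, and they state neither age, cycle stage and the way the epithelium was isolated nor whether each library is a separate animal. This Cre is active in cells that express the progesterone receptor, which include uterine stroma and muscle and, per the labels' protocols, ovary, oviduct, mammary gland and pituitary, so it is not restricted to the epithelium.

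Arginase hydrolyses arginine to ornithine and urea, and nitric oxide synthase takes the same arginine to nitric oxide and citrulline. Argininosuccinate synthase and argininosuccinate lyase rebuild arginine from citrulline. Ornithine is turned by ornithine decarboxylase into putrescine, which spermidine synthase and spermine synthase extend to the larger polyamines, or by ornithine aminotransferase towards proline and glutamate. Polyamines bind nucleic acids and are needed for cell growth, and ornithine decarboxylase is known in the rodent uterus for its part in decidualization.

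Values are FPKM, the fragments of a transcript divided by its length and by library depth, scaled between libraries, so levels can be set side by side between genes. The labelled tissue was checked against epithelial markers: Epcam lay between 377.8 and 523.2 scaled FPKM and Krt8 between 357.7 and 808.0, while the fibroblast list summed to between 58.6 and 261 over 12 genes. The estimated depth was 44.3 to 55.6 M mapped fragments per library, lowest in cKO 3. Control 1 stood apart in smooth muscle RNA, with 335 summed scaled FPKM over 8 markers where the other 7 libraries had 17.7 to 113. By their titles, 6 libraries carry neighbouring numbers (the main title series) while cKO 1 and cKO 2 carry lower ones, and this was treated as a possible batch.

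The mouse has 2 arginase genes, so their coding sequences were aligned to see how far sequencing reads can tell them apart. Over 971 aligned bases of the coding sequence they were 62.6% identical, and the longest run without a difference was 12 bases.

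Arg1, the cytosolic arginase of liver and of alternatively activated macrophages, was by far the more abundant arginase in this epithelium and was lower in every cKO library (chromosome 10, 24915207 to 24927470, mm10). Its level was 889.9, 438.3 and 414.2 scaled FPKM in controls 1 to 3. In cKO 1 to 5 it was 177.6, 244.2, 56.3, 116.1 and 197.0 scaled FPKM. The groups did not overlap, control 1 was the highest library, and cKO 3 was the lowest of all. Group means were 580.8 ± 267.9 (SD, n = 3) in control and 158.2 ± 73.2 (SD, n = 5) in cKO, 3.67-fold lower, and the log2 difference on the log2(scaled FPKM + 1) scale was -1.94 ± 0.47 (standard error of the limma fit). By its mean level Arg1 ranked 60 among 24346 symbols in control and 347 in cKO. Between 3638 and 62544 fragments stood behind each Arg1 value, as estimated from the width of the deposited intervals. In whole preparations such as these, fewer cells of one type and less RNA per cell cannot be told apart.

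**Figure D1:**
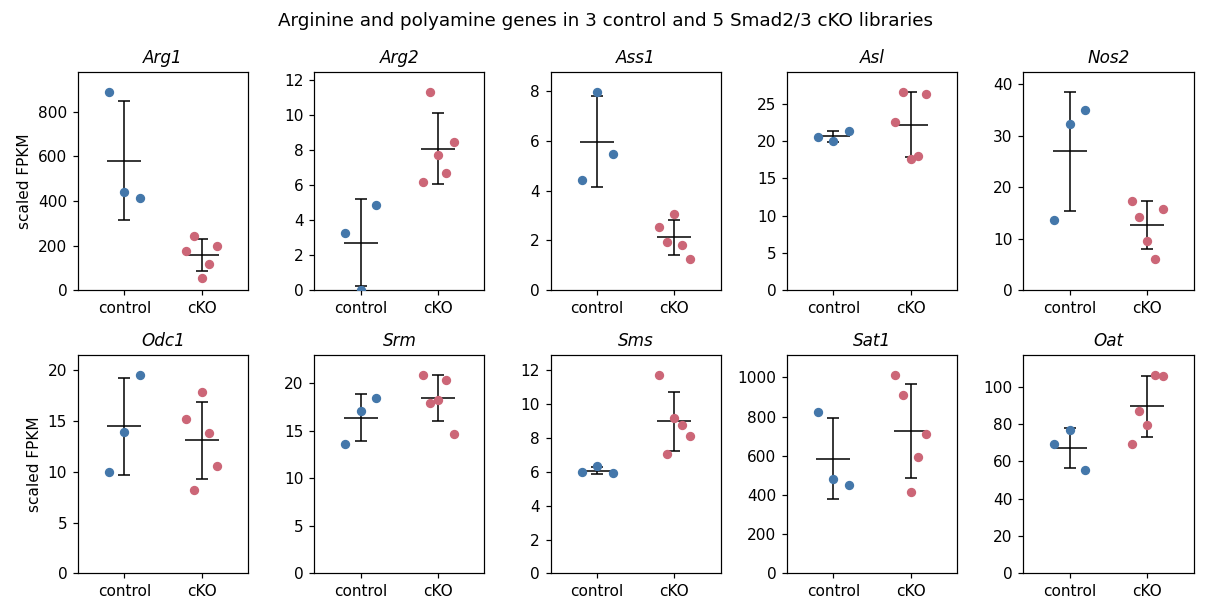
Scaled FPKM of the 10 genes in each library (points), with the group mean and SD (bars), for 3 control and 5 cKO libraries. Arg1 lies between 414.2 and 889.9 in control and between 56.3 and 244.2 in cKO, Ass1 is also separated downwards, and Arg2 and Sms are separated upwards.

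Arg2 encodes the mitochondrial arginase and was a minor transcript (chromosome 12, 79130788 to 79156301). Its level was 3.24, 0 and 4.87 scaled FPKM in controls 1 to 3. The cKO libraries 1 to 5 stood at 6.17, 11.3, 7.71, 6.71 and 8.44. All cKO libraries lay above all controls. The value of control 2 is an exact 0, and a failed estimate can also be listed that way. Arg2 shares 285 bases at its end with the oppositely transcribed Vti1b, which was at 33.7 in that library, and reads of the shared bases may have been given to either gene. Against the other 2 controls the cKO mean was 1.99-fold higher (8.07 against 4.06) and the log2 difference 0.84, in place of 1.61 ± 0.50 with control 2 counted.

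Because Arg1 was so much higher, the summed arginase level followed it. Arg1 made up 99.6%, 100% and 98.8% of Arg1 plus Arg2 in controls 1 to 3, the second of these with Arg2 listed at 0. In cKO 1 to 5 it made up 96.6%, 95.6%, 87.9%, 94.5% and 95.9%. Every cKO share lay below every control share. The sum of both genes was 583.5 ± 268.3 scaled FPKM (SD, n = 3) in control and 166.3 ± 74.4 (SD, n = 5) in cKO, again without overlap.

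Nos2 encodes inducible nitric oxide synthase, which competes with arginase for arginine (chromosome 11, 78920859 to 78960124). It stood at 13.7, 32.3 and 34.9 scaled FPKM in controls 1 to 3. The cKO values were 17.4, 14.3, 9.60, 6.06 and 15.7. Controls 2 and 3 lay above all cKO libraries, but control 1 lay inside the cKO range, so the groups overlapped. The mean was 27.0 ± 11.6 (SD, n = 3) in control and 12.6 ± 4.66 (SD, n = 5) in cKO, and the log2 difference -1.02 ± 0.38. Without control 1 this difference was -1.43.

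The ratio of Arg1 to Nos2 was 64.8 in control 1, the control with the most Arg1 and the least Nos2, and 13.6 and 11.9 in controls 2 and 3. In cKO 1 to 5 it was 10.2, 17.1, 5.86, 19.1 and 12.5. The ranges overlapped, and controls 2 and 3 lay within the cKO range.

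Ass1 makes argininosuccinate from citrulline and aspartate, and is the step that usually limits the rebuilding of arginine (chromosome 2, 31470270 to 31520670). It was low, at 4.44, 7.98 and 5.49 scaled FPKM in the controls and 2.54, 1.94, 3.07, 1.82 and 1.25 in cKO 1 to 5. All cKO libraries lay below all controls. The mean went from 5.97 ± 1.82 (SD, n = 3) to 2.12 ± 0.70 (SD, n = 5), 2.81-fold lower, a log2 difference of -1.16 ± 0.22. The deposited tables also place the transcript of the gene model Gm5424 over the Ass1 locus, so reads may be split between them. Summed with Gm5424 the values were 6.53, 7.98 and 7.04 in control and 2.54, 1.94, 3.07, 2.29 and 1.88 in cKO, with the groups still apart.

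For 5 of the 10 genes (Ass1, Odc1, Sms, Sat1 and Oat) a RefSeq promoter window was matched, and that of Ass1 is shown because its groups were separated downwards. The 250 bases before its start, chr2:31470020-31470269 on the plus strand (RefSeq, GRCm38.p6), are 75.6% G or C and are printed 5′ to 3′ with the one motif match in capitals.
Ass1 promoter: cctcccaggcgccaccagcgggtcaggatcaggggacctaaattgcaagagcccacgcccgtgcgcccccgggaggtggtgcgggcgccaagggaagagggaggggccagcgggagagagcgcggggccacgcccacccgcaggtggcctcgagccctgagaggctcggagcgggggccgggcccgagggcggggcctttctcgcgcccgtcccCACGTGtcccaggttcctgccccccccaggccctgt
The capitals mark CACGTG, the E-box that MYC and MAX bind, 36 bases before the start. The E-box was found in 6.02% of all 32851 promoter windows of this length. All motifs were searched on both strands. The others were the SMAD binding element CAGAC (in 42.2% of all windows), the palindromic SMAD element GTCTAGAC (0.167%) and the AP-1 motif TGANTCA (6.75%). Also searched were the C/EBP motif TTGCGCAA (0.164%) and the STAT6 motif (5.85%). Among the windows of the other genes, the SMAD binding element was found once each in those of Sat1 and Oat and the E-box once in 1 of the 2 Sms windows, and none of the 6 motifs in that of Odc1.

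Asl splits argininosuccinate into arginine and fumarate and was level between groups to within the spread of the libraries (chromosome 5, 130011503 to 130024331). Controls 1 to 3 had 20.5, 20.0 and 21.4 scaled FPKM, and cKO 1 to 5 had 22.5, 26.6, 17.6, 18.0 and 26.3. The control values lay inside the cKO range, and the log2 difference was 0.08 ± 0.15. The ratio of Asl to Ass1, the neighbouring steps of the same route, was 4.62, 2.51 and 3.90 in controls 1 to 3. In cKO 1 to 5 it was 8.88, 13.7, 5.74, 9.92 and 21.1, all above the controls.

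Odc1, the ornithine decarboxylase gene and a known MYC target, overlapped between groups (chromosome 12, 17544873 to 17551502). Controls 1 to 3 had 9.98, 13.9 and 19.5 scaled FPKM. The cKO libraries 1 to 5 had 15.2, 8.24, 17.8, 13.8 and 10.5. The log2 difference was -0.13 ± 0.26, and became 0.10 without control 3 and 0.012 without cKO 2. The coefficient of variation was 33.2% among controls and 28.9% among cKO libraries, so libraries of one group differed more than the groups.

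Srm makes spermidine from putrescine (chromosome 4, 148591513 to 148594619). It stood at 13.6, 17.1 and 18.4 scaled FPKM in controls 1 to 3 and at 20.9, 17.9, 18.3, 20.4 and 14.7 in cKO 1 to 5, overlapping ranges with a log2 difference of 0.16 ± 0.14. Sms makes spermine from spermidine (chromosome X, 157443954 to 157492046). Its controls lay close together at 5.96, 6.31 and 5.92, and cKO 1 to 5 were at 11.7, 7.05, 9.17, 8.78 and 8.12. All cKO libraries lay above the controls. The mean was 1.48-fold higher (8.96 ± 1.73, n = 5, against 6.06 ± 0.214, n = 3, SD), a log2 difference of 0.48 ± 0.14.

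Sat1, which acetylates spermidine and spermine and so starts their breakdown or export, was as abundant as Arg1 in control (chromosome X, 155213126 to 155216449). It had 824.1, 483.7 and 449.4 scaled FPKM in the controls and 1012, 908.2, 414.7, 593.2 and 708.5 in cKO 1 to 5. The groups overlapped, with control 1 high and cKO 3 lowest of all. The log2 difference was 0.30 ± 0.32, and it was -0.013 within the main title series and -0.025 after quantile normalization. By mean level Sat1 ranked 59 in control and 58 in cKO. It has 2 transcripts in the tables, of which 1 carried all of the signal.

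Oat, the mitochondrial enzyme that takes ornithine towards proline and glutamate, was the next most abundant (chromosome 7, 132557475 to 132576398). It had 69.1, 77.0 and 55.4 scaled FPKM in the controls and 69.3, 87.2, 79.5, 106.3 and 105.7 in cKO 1 to 5. Only cKO 1 lay within the control range, and the log2 difference was 0.40 ± 0.17. The ratio of Oat to Arg1 was 0.0777, 0.176 and 0.134 in controls 1 to 3. The cKO libraries 1 to 5 had ratios of 0.390, 0.357, 1.41, 0.915 and 0.536. Every cKO ratio lay above every control ratio, and in cKO 3 Oat exceeded Arg1.

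In order of mean control level the genes ran from Sat1 (585.7 scaled FPKM) and Arg1 (580.8) through Oat (67.2), Nos2 (27.0), Asl (20.7), Srm (16.4) and Odc1 (14.5) to Sms (6.06), Ass1 (5.97) and Arg2 (2.71, with control 2 at 0). Among neighbours in this order, the library values overlapped between Sat1 and Arg1, Nos2 and Asl, Srm and Odc1, Sms and Ass1, and Ass1 and Arg2. In cKO the order was Sat1 (727.4), Arg1 (158.2), Oat (89.6), Asl (22.2), Srm (18.4), Odc1 (13.1), Nos2 (12.6), Sms (8.96), Arg2 (8.07) and Ass1 (2.12), where the values of neighbours overlapped except between Sat1 and Arg1, Oat and Asl, and Arg2 and Ass1. The enzymes of polyamine synthesis thus stood far below Sat1 in both groups: the ratio of Sat1 to Odc1 was 82.6, 34.8 and 23.0 for the controls and 66.8, 110.2, 23.3, 43.0 and 67.2 in cKO 1 to 5, with overlap.

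**Figure D2:**
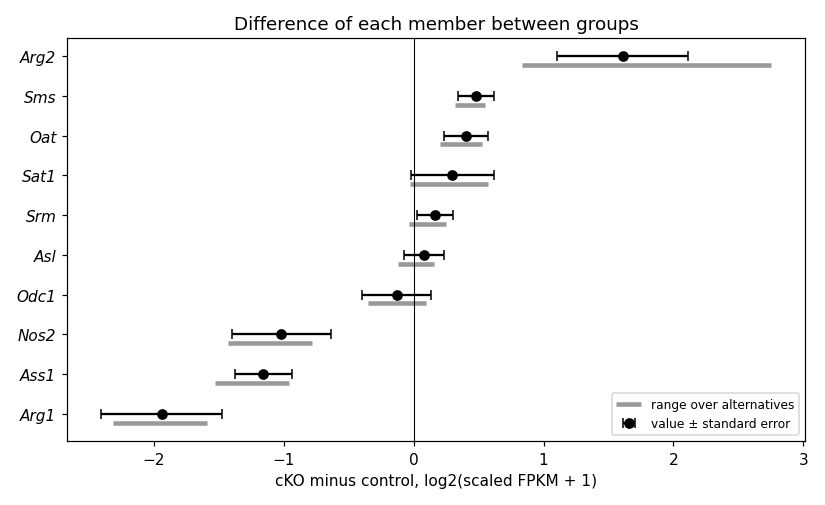
Difference of each gene between cKO and control on the log2(scaled FPKM + 1) scale, with its standard error (points and bars) and the range over the alternative settings (grey). Arg1 lies at -1.94, Ass1 at -1.16 and Nos2 at -1.02, while Asl, Odc1, Srm and Sat1 have grey ranges that reach across 0.

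Across all 11315 genes tested, the limma fit with Benjamini-Hochberg adjustment called 14.3% at an adjusted p below 0.05, 7.27% higher and 6.98% lower in cKO. Before adjustment, 3560 of the 11315 genes had a limma p below 0.05. Among the 10 genes it called 0 higher and 2 lower, Arg1 and Ass1. The groups did not overlap for 2 upwards (Arg2, Sms) and 2 downwards (Arg1, Ass1), where 24.6% of all tested genes did not overlap, 11.7% with all cKO libraries above and 12.9% with all below. Since the genes were chosen on this contrast, nothing is read from these counts. The median log2 difference was 0.12 over the 10 genes and -0.0050 over all tested genes. With TPM in place of scaled FPKM the median over all genes was -0.20, and 512 genes were called higher and 1616 lower in place of 823 and 790. The log2 difference of Arg1 was -1.59 without control 1, -2.10 without control 2 and -2.14 without control 3. Within the 6 libraries of the main title series, where 11.7% of tested genes were called, it was -2.31 for Arg1, -1.21 for Ass1 and 0.45 for Sms.

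The level of Arg1 was set beside other RNA that differed between these libraries. Smooth muscle markers, of which limma called 0 of 7 tested and 0 had an unadjusted p below 0.05, summed to between 59.6 and 335 scaled FPKM over the controls, with control 1 highest, and to between 17.7 and 113 in cKO. Acta2 and Tagln, its most abundant genes, were at 76.97 and 120.7 in control 1. Without control 1 the log2 difference of Arg1 was -1.59 and all cKO libraries still lay below the other controls. Mitosis genes were led by Birc5 and Ube2c. Limma called 0 of 18 tested, and 16 of 18 had an unadjusted p below 0.05. Most of the 18 lay below 1 scaled FPKM in every control (Mki67 between 0.388 and 0.676). Those genes passed the filter on low values through cKO libraries alone, so nothing is read from these counts. The mean log2 level of the 18 tested genes was 0.60, 0.77 and 0.57 in controls 1 to 3. In cKO 1 to 5 it was 1.91, 0.64, 4.12, 3.04 and 2.29. Since most of the 18 so passed the filter, nothing is read from the difference of this mean between the groups. Among cKO libraries the most Arg1 was found where mitosis genes were lowest (cKO 2) and the least where they were highest (cKO 3). The order did not hold throughout: cKO 5 had more Arg1 than cKO 1 (197.0 against 177.6) and also the higher mitosis level. The part of smooth muscle cells or of dividing cells in the Arg1 difference was not tested.

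**Figure D3:**
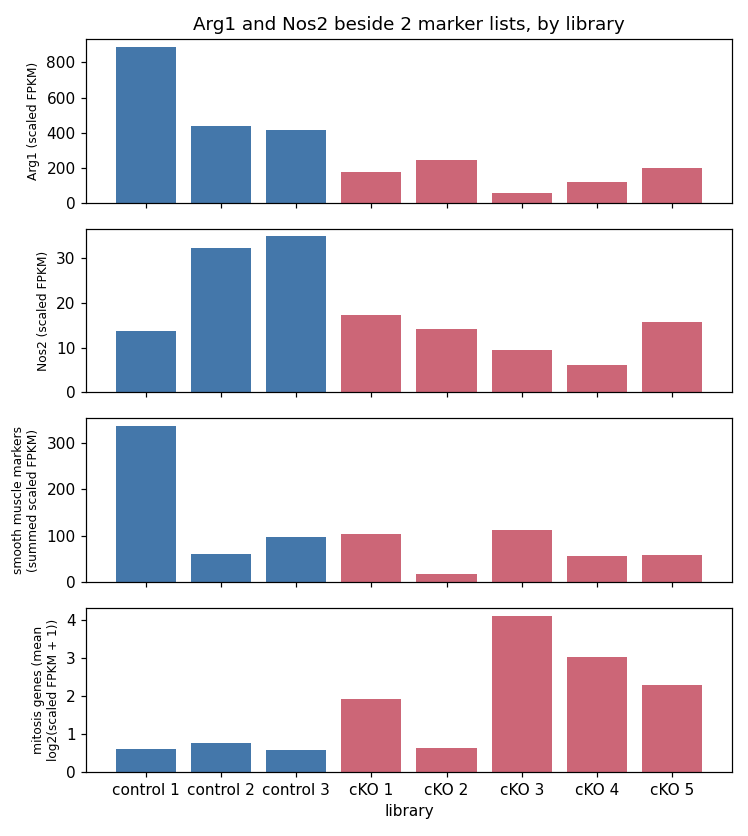
Arg1 and Nos2 (scaled FPKM), the summed scaled FPKM of 8 smooth muscle markers and the mean log2 level of mitosis genes in each library. The mean is over the 18 tested mitosis genes, and bars are blue for control and red for cKO. Control 1 has the most Arg1 (889.9) and smooth muscle RNA (335), and cKO 3 the least Arg1 (56.3) and the highest mitosis level (4.12).

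Arg1 and Nos2 are also used to mark activated macrophages, so markers of these cells were looked at. The macrophage list summed to between 398.9 and 629 scaled FPKM in control and between 472.9 and 735 in cKO, most of it from Cd14 and Cd68. These 2 went opposite ways, with means of 335.3 in control and 464.8 in cKO for Cd14 and 100.9 and 68.5 for Cd68. The median log2 difference of its 9 tested genes was -0.30. Of these, 0 were called higher and 1 lower, and 3 had an unadjusted p below 0.05, where 3560 of all 11315 tested genes did. The gene called lower was Itgam, named here after its values were seen, at 51.6, 61.4 and 40.5 in controls 1 to 3 and between 3.57 and 7.75 in cKO. The part of these cells in the differences was not tested. Among the other genes of the list, given here after their values were seen, Lyz2 lay between 12.3 and 38.9 scaled FPKM over all 8 libraries. The remaining 12 reached at most 4.13 (C1qb) in any library. Of these 12, Csf1r lay between 1.02 and 3.37, Adgre1 between 0.203 and 0.888, Mrc1 at 0.602 or below and Cd163 at 0.026 or below. Cd14, a receptor on the same list, lay between 217.4 and 643.3 over all 8 libraries. None of the 16 genes was at 0 in every library. Markers of alternative activation summed to between 1.76 and 3.14 in control and between 2.19 and 5.68 in cKO, with 1 of 10 genes (Chil3) tested and not called. Neutrophil markers, led by S100a9 and S100a8, summed to between 213.3 and 413 in control and between 309.7 and 1993 in cKO. Limma called 2 of 7 tested higher (Retnlg and Il1r2, named after their values were seen), where 7.27% of all tested genes were called higher. In the controls Retnlg lay between 0.709 and 1.57, and Mmp8, also named after its values were seen, between 0.058 and 0.224. Mmp8 passed the filter on low values through cKO libraries alone, and Retnlg through cKO libraries and control 3. Nothing is read from this count. Other leukocyte markers, led by Ptprc and Gzmb, summed to between 2.99 and 5.82 in control and between 5.59 and 20.3 in cKO. Limma called 0 of 2 tested, and 2 of 2 had an unadjusted p below 0.05. Gzmb lay between 0.2255 and 0.7644 in the controls and passed the filter on low values through cKO libraries alone, so nothing is read from this count. Endothelial markers, led by Egfl7 and Esam, summed to between 6.07 and 11.4 in control and between 4.84 and 9.57 in cKO, with 0 of 4 called. Red cell markers, led by Hba-a1 and Hbb-b1, summed to between 17.0 and 26.4 in control and between 3.56 and 31.9 in cKO, with 0 of 2 called. Fibroblast markers, led by Dcn and Vim, summed to between 116.7 and 261 in control and between 58.6 and 255.9 in cKO, with 0 of 8 tested called higher and 1 lower (Nr2f2, named after its values were seen), and their part was not tested. The epithelial list, led by Lcn2 and Krt19, summed to between 23990 and 24640 in control and between 13520 and 24290 in cKO. Most of that sum was Lcn2, at 17430 ± 551.5 in control and 10750 ± 2933 in cKO, with all cKO libraries below the controls. Limma called 0 of its 14 genes, 3 of which had an unadjusted p below 0.05, where 3560 of all 11315 tested genes did. Of the tested endothelial and red cell markers and Chil3, 0 had an unadjusted p below 0.05.

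Around the 10 genes, 7 lists of pathway genes were read from the same fit. Of 96 genes 70 passed the filter on low values, 9 were called higher and 5 lower, which is 20% where 14.3% of all tested genes were called. The lists were chosen with earlier results of these data known, so the calls and p-values in them are a description. Nothing is read from the share called. Almost no RNA was listed for the classical urea cycle entry. Otc and Nags were listed at 0 in every library, as a failed estimate can also be, and Cps1 was at most 0.0031 scaled FPKM.

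Of 8 tested urea cycle and transport genes 1 was called in each direction (median log2 fold change 0.037). Slc25a13, the mitochondrial carrier that exports the aspartate used by argininosuccinate synthase, fell from 30.9 ± 2.47 scaled FPKM (SD, n = 3) to 18.1 ± 2.11 (SD, n = 5). Controls 1 to 3 had 28.5, 30.7 and 33.5 and cKO 1 to 5 had 15.4, 16.9, 19.2, 20.9 and 18.2, without overlap, and the log2 fold change came to -0.74 ± 0.11 (limma adjusted p = 0.00459). It kept its call in all 17 alternatives. Slc3a2, the shared heavy chain of several amino acid exchangers, rose from 44.5 ± 2.58 to 58.6 ± 5.44 (0.39 ± 0.10, limma adjusted p = 0.0381), a call lost in 9 of 17 alternatives, the unscaled, TPM and quantile values among them.

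On the nitric oxide side 1 of 7 tested genes was called in each direction (median -0.15). Nostrin, which binds endothelial nitric oxide synthase, rose from 1.96 ± 0.66 to 3.94 ± 0.613 scaled FPKM (0.76 ± 0.17, limma adjusted p = 0.021). Pts, an enzyme of the synthesis of the cofactor tetrahydrobiopterin, fell from 26.9 ± 1.51 to 19.9 ± 2.23 (-0.42 ± 0.11, limma adjusted p = 0.0319), and lost its call in 6 of 17 alternatives, including without any 1 control, without cKO 1 and with the title series as a term. Nostrin lost its call in 3 of 16, with TPM and without control 2 (0.82) or control 3 (0.56). The endothelial synthase gene Nos3 was itself listed at 0 in every library, and a failed estimate can also be listed that way.

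The most calls of any of the 7 lists were found beyond ornithine aminotransferase, in the proline, creatine, agmatine and glutamate list, where 4 of 11 tested genes were higher and 1 lower (median 0.087). Glul, the glutamine synthetase gene, rose from 51.7 ± 8.43 scaled FPKM (SD, n = 3) to 118.4 ± 17.2 (SD, n = 5). Its controls were at 58.9, 53.8 and 42.4 and cKO 1 to 5 at 124.8, 110.1, 93.2, 137.8 and 126.0, and the log2 fold change was 1.18 ± 0.16 (limma adjusted p = 0.00265). Prodh, which opens proline breakdown, rose from 2.01 ± 0.667 to 4.97 ± 0.535 (1.01 ± 0.16, limma adjusted p = 0.00527). Glud1, glutamate dehydrogenase, rose from 16.9 ± 1.74 to 31.3 ± 5.21 (0.84 ± 0.15, limma adjusted p = 0.0089). Azin2, an antizyme inhibitor that spares ornithine decarboxylase and that is named after its values were seen, fell from 4.11 ± 1.24 to 1.47 ± 0.658 scaled FPKM (-1.06 ± 0.24, limma adjusted p = 0.021). Glul and Prodh kept their calls in all 17 alternatives. Glud1 lost its call without control 3 (0.76) and in no other alternative run.

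**Figure D4:**
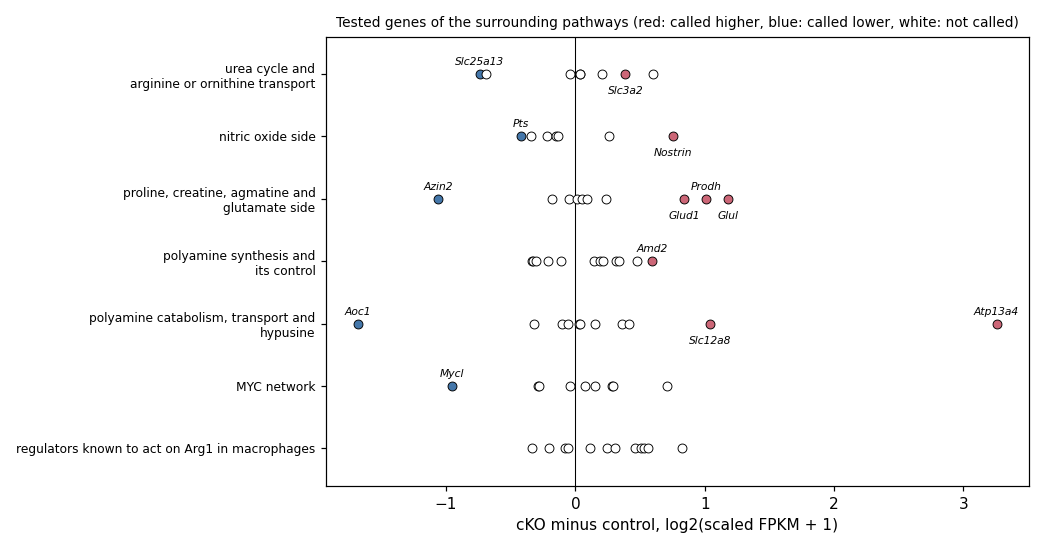
Log2 fold change (cKO minus control, log2(scaled FPKM + 1)) of the tested genes in the 7 pathway lists, 1 point a gene, with 1 gene left out. Red points were called higher and blue points lower at a limma adjusted p below 0.05, and the called genes shown are named. Atp13a4 lies farthest right at 3.26 and Aoc1 farthest left at -1.68.

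Among 12 tested genes of polyamine synthesis and its control, 1 was called higher and 0 lower (median 0.17). The call was that of Amd2, an S-adenosylmethionine decarboxylase gene, at 18.7 ± 0.599 against 29.0 ± 4.21 scaled FPKM in cKO (0.59 ± 0.12, limma adjusted p = 0.0169), and it was lost in 4 of 17 alternatives, with TPM (0.41) and without control 1 (0.57), control 2 (0.59) or control 3 (0.62). The deposited tables place Amd1 and Amd2 at the same locus, and their coding sequences are 99.9% identical, so the reads of this pair cannot be divided. Summed, they had 24.6, 18.6 and 19.4 scaled FPKM in the controls and 34.6, 22.8, 29.2, 29.4 and 29.0 in cKO 1 to 5. The sums overlapped, because control 1 exceeded cKO 2.

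The list of polyamine catabolism, transport and hypusine held the largest changes, with 2 of 11 tested genes higher and 1 lower (median 0.033). Atp13a4, of the same P-type ATPase family as the polyamine transporters Atp13a2 and Atp13a3, rose from 4.97, 1.72 and 1.72 scaled FPKM in controls 1 to 3 to 26.9, 33.8, 31.8, 29.7 and 44.1 in cKO 1 to 5. By group means it was 11.9-fold higher (2.80 ± 1.88, n = 3, against 33.3 ± 6.58, n = 5, SD). The log2 fold change was 3.26 ± 0.27 at a limma adjusted p = 0.000307, and it kept its call in all 17 alternatives. Aoc1, diamine oxidase, which degrades putrescine and histamine, fell from 171.5, 67.9 and 112.5 in controls 1 to 3 to 48.9, 29.1, 33.2, 39.2 and 22.6 in cKO 1 to 5. Its mean was 3.39-fold lower (117.3 ± 52.0 against 34.6 ± 10.0) and its log2 fold change -1.68 ± 0.31 (limma adjusted p = 0.0112), and the call was lost without control 3 (-1.66) but in no other alternative run. Slc12a8, a cation-chloride cotransporter family gene, rose from 0.307 ± 0.0472 to 1.82 ± 1.01 (1.04 ± 0.27, limma adjusted p = 0.0343), a low gene whose call was lost in 7 of 15 alternatives. Its controls lay between 0.2752 and 0.361, so it passed the filter on low values through cKO libraries alone. Nothing is read from its call.

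In the MYC network 0 of 9 tested genes were higher and 1 lower (median 0.070): Mycl fell from 12.7 ± 2.71 to 6.06 ± 1.04 scaled FPKM (-0.95 ± 0.16, limma adjusted p = 0.0077), a call lost without control 3 (-0.90). Of 12 regulators known to act on Arg1 in macrophages, 0 were called by limma in either direction (median 0.27). An unadjusted p below 0.05 was found for 5 of them, where 3560 of all 11315 tested genes had one. The most abundant were Klf4, at 71.8 ± 32.01 in control and 100.6 ± 25.8 in cKO (0.53 ± 0.28, limma adjusted p = 0.233), and Stat3, at 66.8 ± 7.83 and 63.0 ± 6.75 (-0.083 ± 0.12, limma adjusted p = 0.666).

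Finally, genes were ranked by how closely their pattern over the 8 libraries followed that of Arg1, by Pearson's r of log2(scaled FPKM + 1) among 7481 genes with a mean of at least 5 scaled FPKM. This is a description in which groups and single libraries both count. The closest were Nucb1 (r = 0.966), Arrdc2 (0.966), Cited1 (0.965), Calcoco1 (0.959) and Brd2 (0.957). Cited1, a transcriptional coactivator gene, had of these 5 the log2 difference nearest to that of Arg1 (-1.89), with 30.2, 27.4 and 16.7 scaled FPKM in the controls and 9.79, 11.8, 1.799, 4.22 and 6.11 in cKO 1 to 5. Brd2 followed Arg1 over a narrow range, from 44.1 to 55.3. The genes closest to Odc1 were Pno1 (0.970), Set (0.949), Psme3 (0.947), Wbscr16 (0.932) and Wdr46 (0.931). All 5 were not called between groups, as Odc1 was not, and like Odc1 they were lowest in a cKO library, cKO 2 for Pno1, Set, Psme3 and Wbscr16 and cKO 5 for Wdr46.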

How the data were processed

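RNA of uterine epithelium was measured in 3 control and 5 Smad2/3 cKO libraries, grouped by their genotype labels; replicate numbers only name libraries. Per the submitters' processing notes, the tools were bcl2fastq 1.8.3, Cufflinks and TopHat with mm10. Whether counting used strand, which annotation release it read and the remaining versions were not given in these sources. Per the file headers, the authors' FPKM cover 34535 RefSeq transcripts in a table for every library, with 95% intervals. A deposited coverage signal was left aside. Depth was estimated from the interval widths of genes with 1 transcript of at least 3000 bases. No counts were recovered, so no count test was run.

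FPKM was summed per symbol, and 15 symbols with a status other than OK were left out. Each library was scaled by its median ratio to the genes' geometric means (9939 genes). Genes that reached a scaled FPKM of 1 in 3 or more libraries were tested with limma 3.58.1 (R 4.3.3), two-sided, after log2(scaled FPKM + 1) and with a trend in the variance, Benjamini-Hochberg adjusted and called below 0.05. This scale understates changes of low genes. P-values measure the spread between libraries, which may be technical. Members and lists were chosen with earlier results of these data known. Genes named by rule are the members and up to 4 called genes per pathway list by adjusted p (otherwise the 2 most abundant). The rule also took the 2 most abundant of each marker list, and the 5 most like Arg1 and Odc1. Others, such as Epcam, Krt8, Mki67, Otc, Nags, Cps1 and Nos3, were named outside this rule. Alternatives were unscaled FPKM, TPM, quantile normalization, pseudocount 0.1, no filter or a filter at 5, no variance trend, each library left out, the main title series alone, and title series as a term. Biopython 1.88 aligned coding sequences. Some items, 1 called pathway gene among them, are not reported here.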

Additional observations from a re-analysis of the deposited data

How the results depend on the processing

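Over 17 alternatives, the log2 differences of Arg1, Arg2, Ass1, Nos2, Sms and Oat kept their sign, that of Ass1 in the 16 that tested it. Arg1 ranged from -2.31 to -1.59, and Nos2 from -1.43 to -0.79. That of Arg2 was 2.75 with pseudocount 0.1 (control 2 is listed at 0), and that of Ass1 was -1.53 with TPM. The cause of these shifts was not tested. Small values changed sign, besides those of Odc1 and Sat1 given above: Stat3 was 0.0035 without control 1, Asl was -0.12 with TPM and -0.024 within the main title series, and Srm was -0.033 with TPM. TPM gave 512 genes higher, 1616 lower and 9 pathway genes lower in place of 5. Within the main title series 3 pathway genes were lower. Calls of the 10 genes rest on the contrast that chose them and support nothing. Of them, 1 was called higher (Sms) with quantile normalization, pseudocount 0.1, the filter at 5, the main title series alone and without cKO 2. Called lower were 1 with no filter (Ass1) and 1 with the filter at 5 (Arg1). The call of Arg1 was kept in 13 of 17 alternatives and lost with no filter and without control 1, 2 or 3. That of Ass1 was kept in 14 of 16 and lost without control 2 or 3. Nos2 was called lower with TPM and without control 1. Leaving out 1 library each gave 238 to 935 genes higher and 176 to 892 lower, 3 to 11 pathway genes higher and 1 to 6 lower, and 0 to 1 members higher and 0 to 2 lower. Higher and lower genes numbered 238 and 186 without control 2, and 243 and 176 without control 3; 437 were lower without control 1. No paired analysis was possible because the labels give the libraries no shared replicate numbers. By the width of the deposited intervals, low genes such as Ass1 rest on as few as 66 estimated fragments. Gm5424 is placed over the Ass1 locus, so for Ass1 this estimate is uncertain.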
